A study of Mus musculus with 12 samples.

Results

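The enzymes that add and remove acetyl and methyl groups on histones were compared between dopaminergic neurons of 2 midbrain regions of the mouse, the ventral tegmental area (VTA) and the pars compacta of the substantia nigra (SNpc). Members were taken by symbol. They comprised the Kat, Hdac, Sirt, Setd, Kmt, Kdm and Prmt genes with a number in their name, Setdb1 and Setdb2, and the genes Ep300, Crebbp, Ehmt1, Ehmt2, Ezh1, Ezh2, Nsd1 and Dot1l. Kdm5c, Kdm5d and Kdm6a, which lie on the sex chromosomes, were left out, while Hdac6 and Hdac8 on the X chromosome were kept. The rule found 61 of the 23079 genes in the table and used no measured value. Both groups were C57BL/6 mice and differed in the region, and RNA came from translating ribosome affinity purification (TRAP), in which RNA bound to a tagged ribosome of a chosen cell type is pulled down from tissue. For age, any treatment, the promoter that drives the tag and the number of animals behind a library, nothing is given in the sources used here. The table holds 6 columns per region. SNpc columns 4 and 5 held identical counts, as did VTA columns 2 and 3, so each pair was counted as 1 library and each region had 5 libraries.

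Acetyltransferases place acetyl groups on lysines of histone tails, which loosens the contact of the tail with DNA and offers a docking site to bromodomain proteins, and the zinc-dependent deacetylases and the NAD-dependent sirtuins take them off. Lysine methyltransferases write marks whose meaning depends on the residue, from promoter marks such as H3K4 methylation to repressive marks such as H3K9 and H3K27 methylation, and the demethylases of the Kdm families erase them. The Prmt enzymes methylate arginines of histones and of many other proteins. Many members also act on targets other than histones, among them tubulin, actin and mitochondrial enzymes, and several take part in the activity-dependent gene expression of neurons.

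Promoter sequence from RefSeq (build GRCm38.p6) was at hand for 51 of the 61 members. It is shown for the members of the 2 deacetylase pairs whose ratio differed most between the regions, Sirt1 with Sirt2 and Hdac7 with Hdac9, because within each pair one gene was higher in VTA and the other higher in SNpc. The windows are the bases before the annotated start that lie in no exon, written 5′ to 3′ on the strand of the gene. They are Sirt1 at chr10:63339051-63339285 (minus strand), Sirt2 at chr7:28766641-28766734 (plus strand), Hdac7 at chr15:97844503-97844752 (minus strand) and Hdac9 at chr12:34917096-34917345 (minus strand). Hdac7 has 4 listed starts and Hdac9 has 2, and the outermost was taken for each. Capitals mark GC boxes (GGGCGG, the letters bound by Sp1 family factors) and E-boxes (CACGTG), searched on both strands.
Sirt1: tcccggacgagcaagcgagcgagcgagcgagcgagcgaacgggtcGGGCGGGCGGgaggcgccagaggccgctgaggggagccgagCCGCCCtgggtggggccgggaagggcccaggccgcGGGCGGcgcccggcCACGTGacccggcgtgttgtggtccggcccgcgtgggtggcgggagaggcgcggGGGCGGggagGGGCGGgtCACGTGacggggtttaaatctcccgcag
Sirt2: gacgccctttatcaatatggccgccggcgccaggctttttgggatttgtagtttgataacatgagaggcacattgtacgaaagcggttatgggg
Hdac7: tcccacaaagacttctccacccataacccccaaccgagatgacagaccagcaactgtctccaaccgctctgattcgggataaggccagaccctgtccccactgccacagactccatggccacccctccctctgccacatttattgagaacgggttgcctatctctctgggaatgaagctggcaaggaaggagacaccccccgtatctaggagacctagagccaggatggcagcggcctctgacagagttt
Hdac9: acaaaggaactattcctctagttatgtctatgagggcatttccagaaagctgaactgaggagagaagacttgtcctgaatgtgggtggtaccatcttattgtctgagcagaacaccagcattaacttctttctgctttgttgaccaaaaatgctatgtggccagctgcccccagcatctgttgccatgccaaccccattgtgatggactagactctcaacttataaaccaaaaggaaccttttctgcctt

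The 235 bases before Sirt1 held 6 GC boxes, of which 2 overlap, and 2 E-boxes, with a GC content of 78.3% and 36 CpG dinucleotides. The 94 bases before Sirt2, the 250 before Hdac7 and the 250 before Hdac9 held neither motif, and Hdac9 had no CpG in its window. Over the 250 bases before the start of all 12333 tested genes with a window, 60.7% held a GC box, 9.34% the E-box, 2.9% the cyclic AMP response element TGACGTCA and 40.1% a CCAAT box. Of the 16 members higher in VTA that had such a window, 12 held a GC box, 1 the E-box and 5 a CCAAT box. Of the 7 higher in SNpc, 5 held a GC box, 2 the E-box and 6 a CCAAT box, and of the 28 that were not called 15, 3 and 14 did. The response element was present in 1 member window, that of an uncalled gene. These are matches of letters and describe the windows only.

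Libraries held 62356964 to 81393907 counts. As a check of the dissected cells, 11 of 12 dopaminergic marker genes were higher in SNpc, with summed levels of 10950 to 15940 CPM (a gene's counts scaled to a common library total) there and 5634 to 9231 CPM in VTA. Of the other cells, astrocyte markers summed to 460 to 771 CPM in SNpc and 669 to 851 CPM in VTA, with 3 of 10 higher in VTA. Oligodendrocyte markers summed to 285 to 1478 and 725 to 897 CPM with 0 of 10 called by edgeR's quasi-likelihood test, and microglial markers to 15.5 to 42.2 and 38.2 to 54.9 CPM with 2 of 9 higher in VTA. Oligodendrocyte precursor markers summed to 19.6 to 66.1 and 48.5 to 72.7 CPM with 3 of 6 higher in VTA, and vascular markers to 4.02 to 13.2 and 7.48 to 99.8 CPM, highest in VTA library 1, with 2 of 7 tested higher in VTA. Of other neurons, glutamatergic markers summed to 19.2 to 88.4 and 93.6 to 134 CPM with 2 of 4 higher in VTA, GABAergic markers to 294 to 518 and 306 to 399 CPM with 1 of 4 higher in SNpc, and serotonergic markers to 1.46 to 7.76 and 2.11 to 30.9 CPM with 0 of 3 called by edgeR. None of these markers was at 0 in all libraries. Among the SNpc libraries, library 4 had the highest glial sums. The part that other cell types play in the results below was not tested beyond the fit with glial markers as a covariate. That covariate pooled the astrocyte, oligodendrocyte, precursor, microglial and vascular markers. Its effect is given beside each member whose call it changes and once for the lists. In such bulk samples fewer cells of a type and less RNA per cell cannot be told apart.

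Most of the differences were toward VTA. Of the 61 members, all of which passed the filter on low counts, 22 were higher in VTA and 8 were higher in SNpc by edgeR's quasi-likelihood test with Benjamini-Hochberg adjustment under 0.05. The other 31 did not pass. The 22 are 36.1% of the members, beside 20.4% of the 15685 genes tested that were higher in VTA. The 8 are 13.1% of the members, beside 17.8% of all genes that were higher in SNpc. A change of at least 2-fold was called in VTA for 9 members (14.8%, beside 10.2% of all genes), and in SNpc for no member (beside 0.803% of all genes). In 24 members (39.3%, beside 26.6% of all genes) the 5 values of one region did not overlap the 5 of the other, 19 of them with VTA above and 5 with SNpc above. The median log2 fold change, SNpc minus VTA, was -0.13 over the members and -0.044 over all genes tested. With glial markers as a covariate, 16 members were higher in VTA (beside 14.3% of all genes) and 4 in SNpc (beside 9.49%). Tested against a minimum change of 1.5-fold with edgeR's glmTreat, 10 members were higher in VTA (beside 7.31%) and 0 in SNpc (beside 0.599%), also 0 at an unadjusted p under 0.05. Together the members took 0.402% to 0.441% of the counts of an SNpc library and 0.561% to 0.648% of those of a VTA library, ranges that did not overlap. That share weighs members by their counts and does not describe the typical member. Among abundant members, Kdm6b averaged 137 CPM in SNpc and 597 CPM in VTA, and Setd7 averaged 821 and 836 CPM. In 22 members some exonic bases also belong to another annotated gene, and without strand such reads cannot be assigned. Among those named below are Kat5 with Rnaseh2c (426 bases), Sirt3 with Psmd13 (152 bases) and Kdm6b with its antisense transcript (149 bases). Each such length is the longest stretch shared by any pair of exons, so the total shared can be larger.

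**Figure D1:**
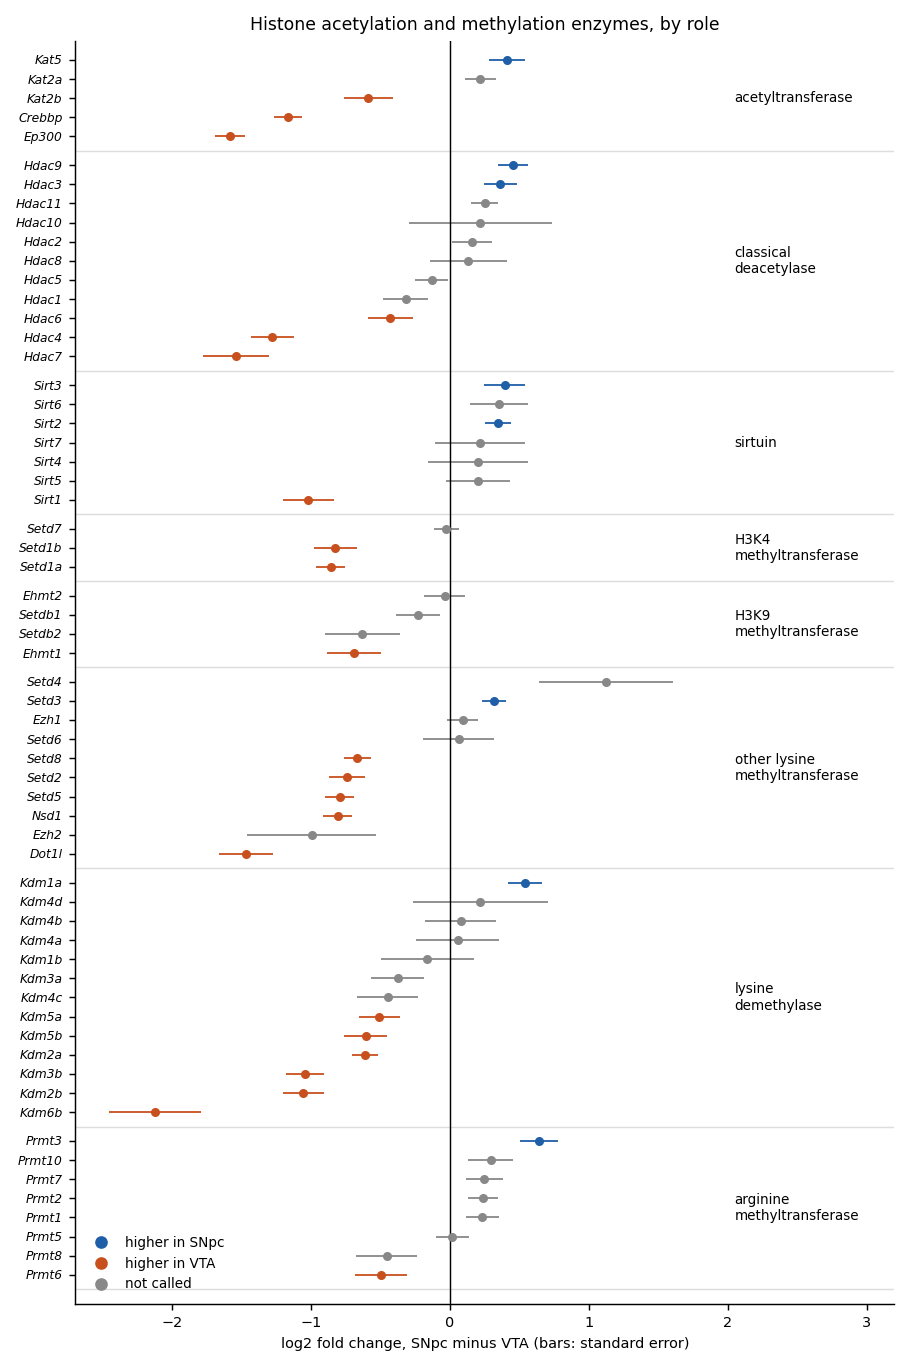
Log2 fold change between the regions (SNpc minus VTA, x axis) of the 61 members, grouped by role, with bars of 1 standard error; colour gives the call at an adjusted p under 0.05. Kdm6b lies farthest to the left at -2.12, and the 22 members higher in VTA are spread over all 8 roles, while the 8 higher in SNpc all lie below a change of 1 on this scale.

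Values below are TMM-scaled CPM, given for SNpc libraries 1, 2, 3, 4 and 6 and then for VTA libraries 1, 2, 4, 5 and 6. Counts called within a role stand beside 20.4% of all genes tested higher in VTA, 17.8% higher in SNpc and 38.2% in either direction. They describe the listed members only, and no role was tested as a group. The labels do not say that libraries came from separate animals. Each p-value therefore sets the difference between regions only against the scatter of these libraries, and that scatter may be technical. Adjusted p-values are those of edgeR's quasi-likelihood test with Benjamini-Hochberg adjustment over all genes tested, and each log2 fold change is followed by its standard error (SE).

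Of the 5 acetyltransferases, 3 were higher in VTA, 1 was higher in SNpc and 1 did not pass, with a median log2 fold change of -0.59. Ep300 and Crebbp, the paralogous coactivators that acetylate H3K27 at enhancers, had the smallest p-values of all members. Ep300 (Entrez 328572, chromosome 15, 81586209 to 81652077 on mm10) measured 116, 126, 123, 101 and 120 CPM in SNpc and 301, 438, 306, 350 and 362 CPM in VTA. Every VTA library lay far above every SNpc library, and the level was 3.0-fold higher in VTA (log2 fold change -1.59, SE 0.11, adjusted p 1.12e-07 by edgeR). Crebbp (Entrez 12914, chromosome 16, 4081334 to 4213957) measured 132, 145, 142, 149 and 158 CPM in SNpc and 303, 411, 286, 305 and 326 CPM in VTA. The groups again did not overlap, with the highest value of each gene in VTA library 2 (Crebbp -1.17, SE 0.10, adjusted p 4.49e-07 by edgeR). Removing the trend of the fold changes with transcript length and GC content, described below, moved Ep300 to -1.03 and Crebbp to -0.57, and both stayed higher in VTA.

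The other acetyltransferases belong to the large coactivator complexes. Kat2b, a catalytic subunit of the SAGA type complexes also known as PCAF, measured 9.72, 11.8, 15.0, 16.1 and 11.6 CPM in SNpc and 22.9, 18.1, 19.2, 19.6 and 16.7 CPM in VTA. The lowest VTA library lay just above the highest SNpc library (-0.59, SE 0.17, adjusted p 0.0132 by edgeR). Its paralog Kat2a, known as GCN5, measured 87.3, 78.0, 83.2, 63.3 and 79.3 CPM in SNpc and 60.7, 64.7, 66.5, 80.2 and 64.7 CPM in VTA, which overlap (0.22, adjusted p 0.141 by edgeR). Kat5, the catalytic subunit of the NuA4 complex known as Tip60, was the acetyltransferase higher in SNpc. It measured 70.0, 65.0, 70.6, 58.9 and 53.7 CPM there and 46.1, 37.1, 44.5, 52.6 and 58.9 CPM in VTA, with VTA library 6 inside the SNpc range (0.41, SE 0.13, adjusted p 0.0197 by edgeR). The calls of Kat2b and Kat5 ended with the length and GC trend removed, at -0.44 and 0.27, and with the glial covariate. That of Kat5 also ended without SNpc library 1, SNpc library 3 or VTA library 2 (adjusted p 0.0516 to 0.0533 by edgeR).

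**Figure D2:**
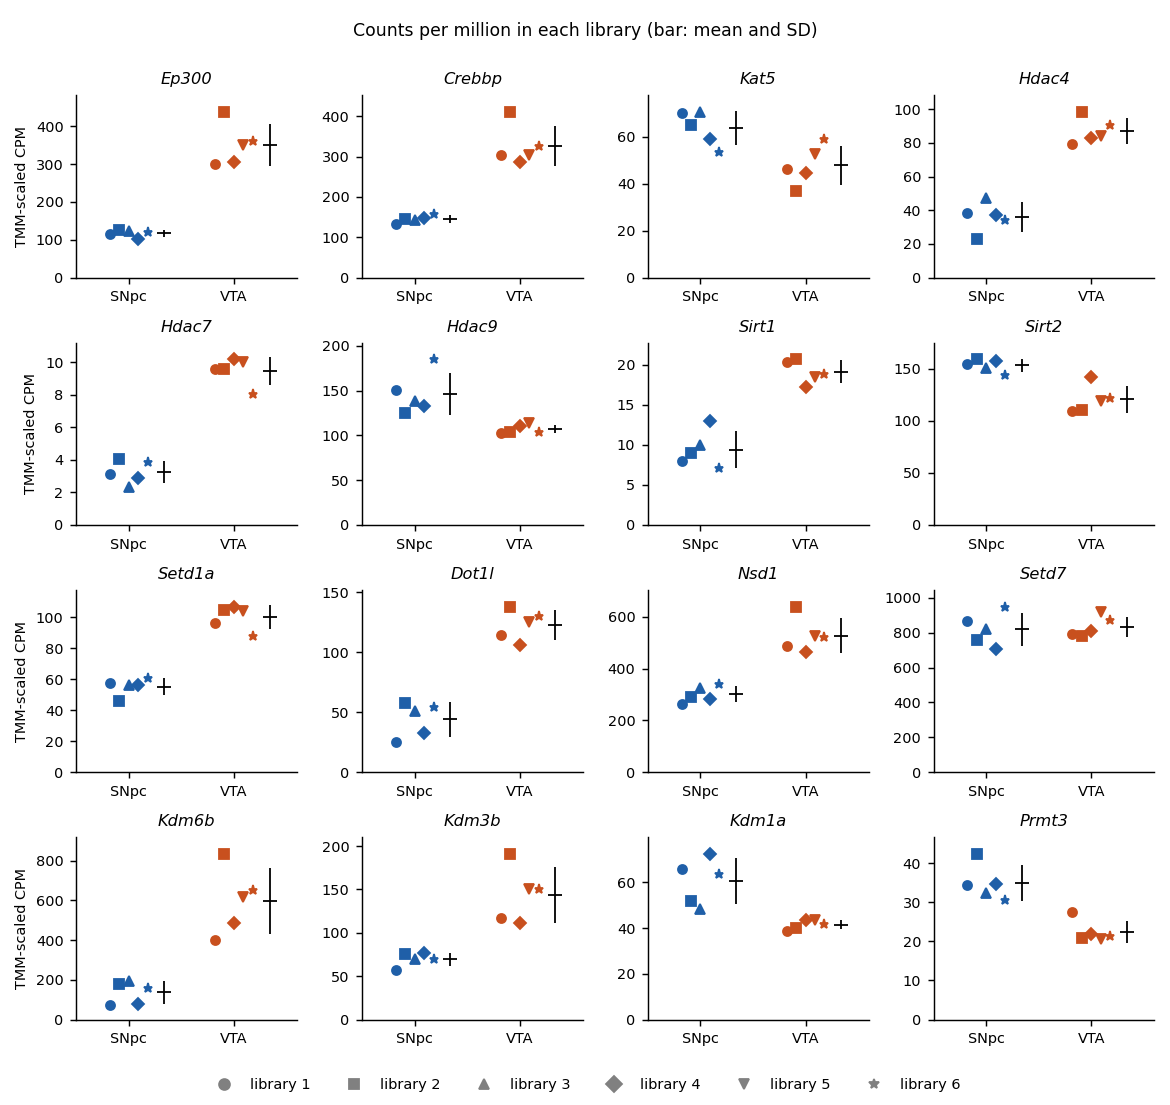
TMM-scaled CPM (y axis, from 0) of 16 members in the 5 SNpc and 5 VTA libraries; each symbol is one library and the bar gives the mean and SD. Ep300 sits between 101 and 126 in SNpc and between 301 and 438 in VTA, while the Setd7 values of the regions overlap.

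Among the 11 zinc-dependent deacetylases, 3 were higher in VTA, 2 were higher in SNpc and 6 did not pass, with a median log2 fold change of 0.13. The 4 members of class IIa, which shuttle between cytoplasm and nucleus with calcium signals and bind MEF2 factors, included 2 genes higher in VTA, 1 higher in SNpc and 1 that did not pass. Hdac4 (Entrez 208727, chromosome 1, 91928779 to 92195702) measured 38.5, 22.8, 47.1, 37.0 and 34.1 CPM in SNpc and 79.2, 98.4, 82.9, 84.3 and 90.8 CPM in VTA. All VTA libraries were above all SNpc libraries (-1.28, SE 0.15, adjusted p 8.00e-06 by edgeR). Hdac7 (Entrez 56233, chromosome 15, 97792661 to 97844502), whose promoter is shown above, was scarce, at 3.15, 4.03, 2.35, 2.89 and 3.87 CPM in SNpc and 9.62, 9.61, 10.2, 10 and 8.04 CPM in VTA. The regions were again separate (-1.54, SE 0.24, adjusted p 9.20e-05 by edgeR).

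Hdac9 (Entrez 79221, chromosome 12, 34047580 to 34917095) went the other way, at 151, 125, 138, 133 and 185 CPM in SNpc and 103, 104, 110, 114 and 104 CPM in VTA. Every SNpc library lay above every VTA library (0.45, SE 0.11, adjusted p 0.00305 by edgeR). With the length and GC trend removed its value was 0.81, and with glial markers as a covariate it was 0.36 and no longer passed. Hdac5, the close relative of Hdac4, measured 183, 193, 170, 144 and 144 CPM in SNpc and 151, 158, 206, 186 and 212 CPM in VTA and did not pass (-0.13, adjusted p 0.407 by edgeR).

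The remaining deacetylases differed less. Hdac6, the tubulin deacetylase of the cytoplasm, measured 15.5, 12.1, 12.2, 16.6 and 15.4 CPM in SNpc and 22.3, 17.7, 16.7, 18.2 and 21.8 CPM in VTA. The regions were separate by a narrow margin (-0.43, SE 0.16, adjusted p 0.0445 by edgeR). Its call ended without any one library other than VTA library 4 (adjusted p 0.0518 to 0.108 by edgeR), and also with the length and GC trend removed (-0.26) and with the glial covariate. Hdac3, the catalytic subunit of the NCoR and SMRT corepressor complexes, was higher in SNpc at 0.36 (adjusted p 0.0237 by edgeR) with overlapping regions. That call ended without SNpc library 1, VTA library 1 or VTA library 5 (adjusted p 0.0553 to 0.0650 by edgeR), with the trend removed (0.17) and with the glial covariate. Hdac11, the only member of class IV and a fatty-acyl hydrolase, had the second highest level per length of all members, 94.3 CPM per kilobase of transcript. It measured 300, 279, 272, 246 and 261 CPM in SNpc and 222, 188, 243, 259 and 231 CPM in VTA, and lay at the threshold without passing it (0.25, SE 0.10, adjusted p 0.0502 by edgeR). Hdac10, which acts on polyamines, was scarce at 1.11 to 1.74 CPM in SNpc and 0.978 to 1.97 CPM in VTA. The class I enzymes Hdac1 (-0.32), Hdac2 (0.15) and Hdac8 (0.13) did not pass, although Hdac1 passed toward VTA with the length and GC trend removed (-0.51).

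Of the 7 sirtuins, 1 was higher in VTA, 2 were higher in SNpc and 4 did not pass, with a median log2 fold change of 0.21. Sirt1 (Entrez 93759, chromosome 10, 63319005 to 63339035), the nuclear sirtuin that deacetylates histones, p53 and PGC-1alpha, measured 7.98, 9.03, 10, 13.0 and 7.09 CPM in SNpc and 20.4, 20.7, 17.2, 18.5 and 18.8 CPM in VTA. All VTA libraries lay above all SNpc libraries (-1.02, SE 0.18, adjusted p 0.000370 by edgeR), and the value was -0.96 with the length and GC trend removed. Sirt2 (Entrez 64383, chromosome 7, 28766752 to 28788665), a mostly cytoplasmic tubulin deacetylase that is abundant in oligodendrocytes, measured 154, 159, 151, 157 and 144 CPM in SNpc and 109, 110, 142, 119 and 122 CPM in VTA. Here SNpc was the higher region in every library, with SNpc library 6 and VTA library 4 closest together (0.34, SE 0.09, adjusted p 0.00766 by edgeR). The call of Sirt2 was kept with the glial covariate, which pools markers of several cell types. It ended with the length and GC trend removed (0.19). The part of oligodendrocytes in the level of Sirt2 was not tested.

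Sirt3, the main mitochondrial deacetylase, measured 37.6, 45.3, 39.2, 55.4 and 33.6 CPM in SNpc and 25.8, 31.7, 31.4, 37.0 and 35.1 CPM in VTA, with overlap (0.39, SE 0.15, adjusted p 0.0452 by edgeR). Its highest value was in SNpc library 4, and its call ended without SNpc library 2, 3 or 4 or VTA library 1, 2, 4 or 6 (adjusted p 0.0502 to 0.112 by edgeR) and with the trend removed (0.12). Sirt4 and Sirt5, which are mitochondrial, and Sirt6 and Sirt7, which are nuclear, had log2 fold changes of 0.20 to 0.35 and did not pass.

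Among the 3 writers of H3K4 methylation, 2 were higher in VTA and 1 did not pass. Setd1a and Setd1b are the catalytic subunits of the complexes that trimethylate H3K4 at promoters. Setd1a (Entrez 233904, chromosome 7, 127777389 to 127800122) measured 57.6, 45.7, 56.3, 56.2 and 60.6 CPM in SNpc and 96.3, 105, 107, 104 and 88.3 CPM in VTA. The regions were separate (-0.86, SE 0.10, adjusted p 9.11e-06 by edgeR). However, the longest exon overlap of Setd1a was 1056 bases, with a predicted gene on the same strand. Setd1b measured 27.8, 36.7, 37.8, 21.8 and 33.4 CPM in SNpc and 48.8, 67.1, 51.4, 60.9 and 51.0 CPM in VTA and was also separate (-0.83, SE 0.15, adjusted p 0.000482 by edgeR). With the length and GC trend removed Setd1a was at -0.43 and still called, and Setd1b was at -0.24 and was not.

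Setd7, a monomethyltransferase of H3K4 and of many other proteins, had the highest level per length of all members, 111.7 CPM per kilobase. It measured 865, 756, 824, 708 and 950 CPM in SNpc and 792, 784, 811, 917 and 873 CPM in VTA. The values of the regions overlapped throughout and no difference was detected (-0.026, SE 0.09, adjusted p 0.847 by edgeR). The sign of this value turned under several alternatives, and with the length and GC trend removed Setd7 was called higher in SNpc at 0.37.

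Of the 4 writers of H3K9 methylation, 1 was higher in VTA. Ehmt1, which forms a heterodimer with Ehmt2 to dimethylate H3K9, measured 8.32, 10.1, 12.8, 17.0 and 11.1 CPM in SNpc and 19.8, 18.5, 23.0, 16.8 and 17.6 CPM in VTA. Only SNpc library 4 reached the VTA range (-0.69, SE 0.19, adjusted p 0.00967 by edgeR), and the call ended with the length and GC trend removed (-0.36) and with the glial covariate. Its partner Ehmt2 measured 28.4, 34.7, 25.3, 28.3 and 40.5 CPM in SNpc and 32.8, 27.1, 30.3, 34.7 and 36.7 CPM in VTA, which overlap (-0.039, adjusted p 0.858 by edgeR). Setdb1, which trimethylates H3K9 where TRIM28 recruits it, measured 20.3 to 24.5 CPM in SNpc and 21.0 to 35.8 CPM in VTA (-0.23, adjusted p 0.260 by edgeR). Setdb2 measured 3.88 to 7.30 and 5.89 to 13.2 CPM and did not pass (-0.63, adjusted p 0.0763 by edgeR), and it passed toward VTA with the trend removed (-0.78).

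The 10 other lysine methyltransferases had a median log2 fold change of -0.70, with 5 higher in VTA, 1 higher in SNpc and 4 not called. Dot1l (Entrez 208266, chromosome 10, 80755101 to 80795461), the H3K79 methyltransferase that acts with transcription elongation factors, measured 25.1, 57.6, 51.2, 32.5 and 54.7 CPM in SNpc and 114, 138, 106, 125 and 130 CPM in VTA. SNpc libraries 1 and 4 were the lowest, and all VTA libraries lay well above the SNpc range (-1.47, SE 0.19, adjusted p 3.86e-05 by edgeR). Nsd1 (Entrez 18193, chromosome 13, 55209782 to 55318325), which dimethylates H3K36, measured 265, 291, 325, 283 and 342 CPM in SNpc and 486, 640, 465, 528 and 521 CPM in VTA. It was separate as well (-0.81, SE 0.10, adjusted p 1.32e-05 by edgeR). Setd5, a SET domain protein of disputed catalytic activity in which mutations cause intellectual disability, measured 213, 229, 228, 184 and 228 CPM in SNpc and 384, 462, 308, 359 and 366 CPM in VTA, again separate (-0.80, SE 0.11, adjusted p 2.35e-05 by edgeR).

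Setd2, which trimethylates H3K36 behind elongating polymerase, was higher in VTA at -0.74 (adjusted p 0.000298 by edgeR), and Setd8, the H4K20 monomethyltransferase now named Kmt5a, at -0.67 (adjusted p 5.60e-05 by edgeR), both with separate regions. With the length and GC trend removed, all 5 of these stayed higher in VTA, Dot1l at -1.03, Setd8 at -0.73, Setd5 at -0.39, Setd2 at -0.37 and Nsd1 at -0.23. Setd3, which methylates a histidine of actin, went the other way. It measured 157, 162, 165, 149 and 180 CPM in SNpc and 127, 117, 142, 131 and 136 CPM in VTA, with every SNpc library above every VTA library (0.32, SE 0.09, adjusted p 0.0100 by edgeR), and its call ended with the glial covariate.

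Ezh1 and Ezh2 are the alternative H3K27 methyltransferases of the polycomb repressive complex, Ezh1 being the form typical of cells that no longer divide. Ezh1 measured 55.7, 48.2, 54.4, 51.2 and 55.4 CPM in SNpc and 56.5, 45.6, 46.5, 55.3 and 44.9 CPM in VTA, with full overlap (0.09, adjusted p 0.547 by edgeR). Ezh2 was scarce in both regions, at 0.398, 3.94, 2.94, 2.09 and 4.89 CPM in SNpc and 5.31, 5.0, 5.79, 8.11 and 4.27 CPM in VTA. SNpc library 1 was the lowest, VTA library 6 lay inside the SNpc range, and the difference did not pass (-1.0, SE 0.47, adjusted p 0.101 by edgeR). Setd4 had the most positive log2 fold change of all members, 1.12. It measured 1.02, 2.51, 3.32, 2.18 and 3.70 CPM in SNpc and 1.02, 1.04, 1.66, 1.16 and 0.968 CPM in VTA, with SNpc library 1 inside the VTA range, and did not pass (adjusted p 0.0777 by edgeR). It passed toward SNpc in the DESeq2 test (1.16) and without SNpc library 1 (1.33). Setd6 (0.06) did not pass.

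Of the 13 lysine demethylases, 6 were higher in VTA, 1 was higher in SNpc and 6 did not pass, with a median log2 fold change of -0.45. Kdm6b (Entrez 216850, chromosome 11, 69398508 to 69420367), also known as JMJD3, which erases H3K27 methylation and is induced by stimuli in many cell types, had the largest fold change of the 61 members. It measured 73.2, 180.0, 194, 77.0 and 161 CPM in SNpc and 399, 834, 486, 615 and 651 CPM in VTA. SNpc libraries 1 and 4 were low within their region, as for Dot1l, VTA library 2 was the highest of its region, and the regions were separate. The level was 4.36-fold higher in VTA (-2.12, SE 0.33, adjusted p 0.000752 by edgeR), and -1.65 on the log2 scale with the length and GC trend removed.

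Kdm3b, which demethylates H3K9, measured 57.5, 75.5, 69.8, 76.4 and 69.4 CPM in SNpc and 117, 191, 111, 150 and 150 CPM in VTA, with separate regions (-1.04, SE 0.14, adjusted p 2.04e-05 by edgeR). Kdm2a and Kdm2b erase H3K36 methylation, and Kdm2b also brings a polycomb complex to CpG islands. Kdm2b measured 15.0, 20.8, 19.1, 17.0 and 16.0 CPM in SNpc and 30.7, 42.8, 37.7, 40.1 and 31.4 CPM in VTA (-1.06, SE 0.14, adjusted p 3.18e-05 by edgeR), but its longest exon overlap with Rnf34 was 627 bases. Kdm2a measured 91.2, 113, 112, 113 and 123 CPM in SNpc and 171, 170.0, 157, 181 and 163 CPM in VTA (-0.61, SE 0.09, adjusted p 9.92e-05 by edgeR). Both were separate. With the length and GC trend removed Kdm3b was at -0.66 and Kdm2b at -0.78, still called, whereas Kdm2a was at -0.14 and was not.

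The H3K4 demethylases Kdm5a (-0.51, adjusted p 0.0109 by edgeR) and Kdm5b (-0.61, adjusted p 0.00530 by edgeR) were also higher in VTA. Both calls ended with the trend removed, at -0.065 and -0.14, and with the glial covariate. Kdm1a (Entrez 99982, chromosome 4, 136550533 to 136602787), the flavin-dependent H3K4 demethylase LSD1, was the demethylase higher in SNpc. It measured 66.0, 51.9, 48.2, 72.4 and 63.8 CPM there and 38.9, 40.1, 43.3, 43.7 and 41.6 CPM in VTA. The regions were separate and the VTA values lay close together (0.54, SE 0.12, adjusted p 0.00237 by edgeR), and the value with the trend removed was 0.53. Kdm1b, Kdm3a, Kdm4a, Kdm4b, Kdm4c and Kdm4d did not pass, with log2 fold changes of -0.45 to 0.22.

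Among the 8 arginine methyltransferases, 1 was higher in SNpc, 1 was higher in VTA and 6 did not pass, with a median log2 fold change of 0.24. Prmt3 (Entrez 71974, chromosome 7, 49778319 to 49861264), a cytoplasmic enzyme that methylates a protein of the small ribosomal subunit, measured 34.5, 42.4, 32.3, 34.8 and 30.5 CPM in SNpc and 27.5, 21.0, 21.8, 20.5 and 21.4 CPM in VTA. All SNpc libraries lay above all VTA libraries (0.64, SE 0.14, adjusted p 0.00151 by edgeR), and the value was 0.51 with the trend removed. Prmt6, which places the asymmetric H3R2 mark that opposes H3K4 methylation, measured 14.6, 12.5, 10.3, 12.5 and 20.4 CPM in SNpc and 20.1, 23.1, 19.5, 20.6 and 16.1 CPM in VTA. SNpc library 6 lay inside the VTA range (-0.50, SE 0.19, adjusted p 0.0437 by edgeR). The call of Prmt6 ended with the glial covariate and without any one library other than SNpc library 6 and VTA library 6 (adjusted p 0.0655 to 0.114 by edgeR). Its longest exon overlap with another transcript was 984 bases.

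Prmt2, a coactivator of nuclear receptors, was abundant per length, at 77.1 CPM per kilobase. It measured 203, 182, 169, 164 and 158 CPM in SNpc and 136, 119, 159, 166 and 162 CPM in VTA and did not pass (0.24, adjusted p 0.0921 by edgeR). The other members of this group were Prmt1, the main asymmetric dimethyltransferase (0.23), Prmt5, the main symmetric one (0.02), Prmt7 (0.25), the neuronal Prmt8 (-0.46) and Prmt10, now named Prmt9 (0.29), none of which passed. Without SNpc library 4, members higher in SNpc numbered 12 in place of 8, beside 20.9% of all genes in place of 17.8%. Prmt1, Prmt2, Prmt7, Hdac11 and Kat2a then passed, and Sirt3 did not.

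Transcript length moved with these results. Among the 61 members, Pearson's r between log2 transcript length and the log2 fold change was -0.659 and Spearman's rho -0.687. Over 14797 tested genes with a length they were -0.312 and -0.383. These correlations are across genes, which are not independent replicates and share the same 10 libraries. The median transcript length was 6704.5 bases (range 2739 to 12784) for members higher in VTA, 2781 bases (1707 to 7411) for those not called and 2330.5 bases (1606 to 7940) for those higher in SNpc. Within single libraries, the slope of the log2 level on log2 length relative to the mean of all libraries was -0.186 to -0.0405 in SNpc and 0.0698 to 0.236 in VTA, steepest in VTA library 2. The slopes of the regions did not overlap, and their part in the results was not tested beyond the fits with the trend removed. Of the 22 members higher in VTA, VTA library 2 gave the highest VTA value in 15 and SNpc library 1 the lowest SNpc value in 12. With the smooth trend in length and GC content removed from all genes, 17 members were higher in VTA, 15 of them among the 22, and 5 were higher in SNpc, 4 of them among the 8. Of all genes tested 16.2% and 14.6% were then called in those directions. The median was then -0.040 over the members and -0.037 over all genes tested. Hdac9, with 7940 bases, was the longest member higher in SNpc.

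**Figure D3:**
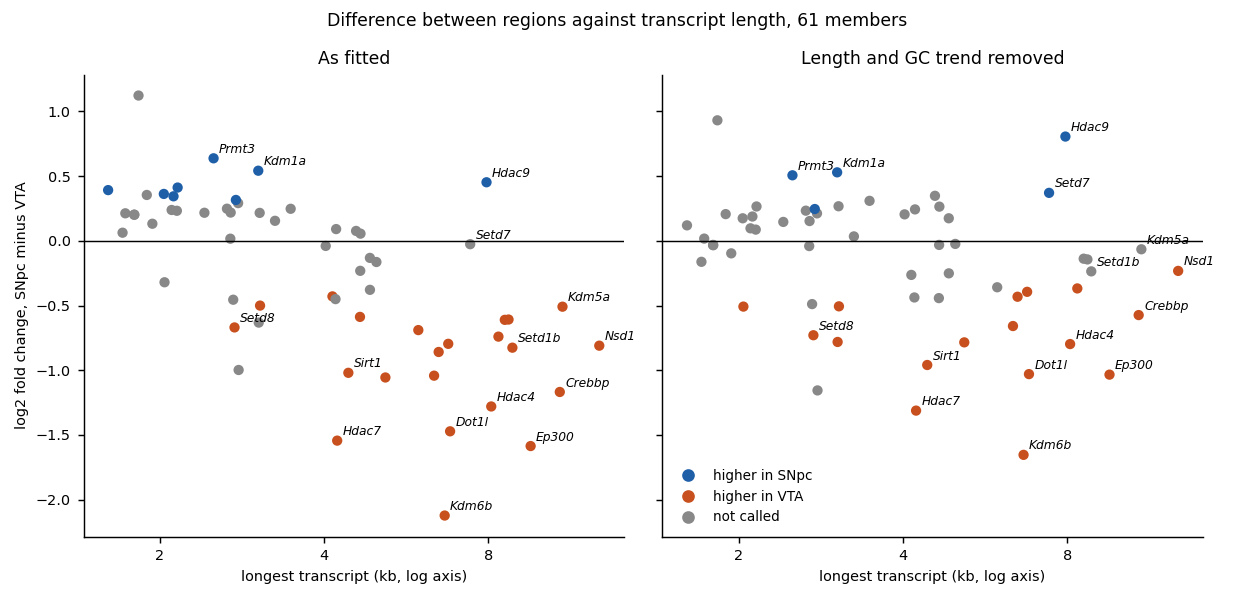
Log2 fold change (SNpc minus VTA, y axis) against transcript length in kilobases (log axis) for the 61 members. The left panel is as fitted, and the right panel has the trend in length and GC content removed. The long members higher in VTA, with a median length of 6704.5 bases, lie lowest on the left, and Ep300 moves from -1.59 to -1.03 on the right.

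To compare related enzymes within a library, the log2 ratio of counts was formed for 17 pairs of paralogs or partners, and the 5 SNpc values were set against the 5 VTA values by a two-sided exact permutation test, which cannot give a p below 0.00794. With Benjamini-Hochberg adjustment over the 17 pairs, 8 differed. The Hdac7 to Hdac9 ratio was -5.86 to -4.95 in SNpc and -3.68 to -3.42 in VTA, a difference of -2.00 (exact p 0.00794, adjusted 0.0270). The Sirt1 to Sirt2 ratio was -4.33 to -3.59 and -3.04 to -2.41, a difference of -1.40 with the same p-values. In both pairs the ranges of the regions were apart. That followed from the single genes, since both genes of each pair were separate between the regions, in opposite directions. The exact p was thus fixed at its smallest value and adds nothing to the calls of the single genes.

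Hdac4 to Hdac5 differed by -1.18, from -3.08 to -1.85 in SNpc and from -1.31 to -0.68 in VTA, again with exact p 0.00794 and adjusted p 0.0270. Ep300 to Crebbp was -0.56 to -0.19 in SNpc and -0.012 to 0.20 in VTA, so that the ratio differed by -0.42 although both genes were higher in VTA (exact p 0.00794, adjusted 0.0270). Ezh1 to Ezh2 was 3.50 to 7.03 in SNpc and 2.76 to 3.40 in VTA, a difference of 1.44 (exact p 0.00794, adjusted 0.0270), where the top value is that of SNpc library 1 with its low Ezh2 count. Without that library the difference was 0.83, and without any one VTA library the adjusted p was 0.0675 to 0.09 in the exact test. Kat2a to Kat2b differed by 0.82, Kdm2a to Kdm2b by 0.44 and Hdac6 to Hdac10 by -0.68, with small overlaps (exact p 0.0159, adjusted 0.0337 for each).

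With the length and GC trend removed, 7 of the 8 pairs still passed, all but Hdac6 to Hdac10. With any one library left out, 4 to 7 pairs passed. Hdac4 to Hdac5, Hdac7 to Hdac9, Ep300 to Crebbp and Sirt1 to Sirt2 passed in each of the 10 such sets. For Hdac7 to Hdac9 and Sirt1 to Sirt2 the exact p was fixed there too by the single genes. The 9 pairs that did not pass included Setd1a to Setd1b, with a difference of -0.019 and values of 0.32 to 1.36 in SNpc and 0.64 to 1.06 in VTA, and Kdm5a to Kdm5b, with a difference of 0.07.

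**Figure D4:**
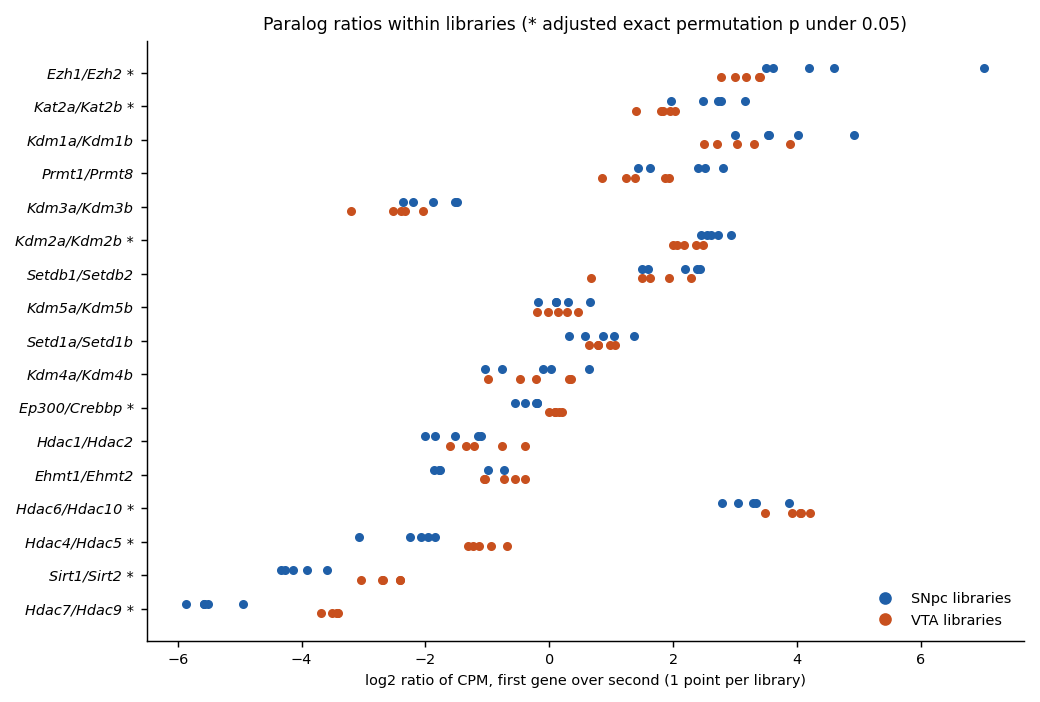
Log2 ratio of counts within each library (x axis) for the 17 pairs, with SNpc and VTA libraries as separate points; a star marks an adjusted p under 0.05. The 8 starred pairs include Hdac7 to Hdac9, where SNpc libraries lie at -5.86 to -4.95 and VTA libraries at -3.68 to -3.42.

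Genes that work with these enzymes were described from 7 further lists, whose counts stand beside 20.4% of all genes tested that were higher in VTA and 17.8% that were higher in SNpc. A list of 34 tested genes outside the naming rule held histone-modifying enzymes and their relatives, including the Mll family under its older names. Of these, 20 were higher in VTA and 1 in SNpc, with a median of -0.69 and a median transcript length of 6244 bases. Mll2 (-1.58) and Mll5 (-1.75) had the smallest p-values there. Of 30 subunits of acetyltransferase complexes, 12 were higher in VTA and 5 in SNpc, with Epc1 (-1.52) and Ep400 (-1.15) of the NuA4 complex at the smallest p-values and a median of -0.20. Of 30 subunits of deacetylase complexes, 9 were higher in VTA and 2 in SNpc (median -0.069), and the smallest p-values were those of the scaffold Mier3 (-1.34) and of Gps2 (-1.25) of the NCoR complex. Of 25 readers of the marks, 8 were higher in VTA and 3 in SNpc (median -0.16), among them Bptf (-0.79) and the polycomb reader Cbx7 (-0.82).

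Of 13 subunits of the H3K4 methyltransferase complexes, 3 were higher in VTA, led by Ncoa6 (-1.63) and Hcfc1 (-0.68), and 1 was higher in SNpc, with a median of -0.0089. Of 9 subunits of the polycomb repressive complex with Ezh1 and Ezh2, 1 was higher in VTA, Mtf2 (-1.77), and 2 in SNpc, among them Jarid2 (0.44). Of 21 genes that supply acetyl-CoA, S-adenosylmethionine, NAD or ketoglutarate, 5 were higher in SNpc, led by Idh3a (0.66) of the citric acid cycle and Mat2b (0.55), a subunit of S-adenosylmethionine synthetase, and 3 were higher in VTA. With the length and GC trend removed, the enzymes outside the rule had 17 higher in VTA and 1 in SNpc, with a median of -0.30. The acetyltransferase complexes then had 11 and 2, the deacetylase complexes 7 and 5, and the readers 3 and 3. The H3K4 complexes had 1 and 1, the polycomb complex 1 and 2, and the cofactor genes 2 and 6. For these trend-removed counts the matching shares of all genes are 16.2% toward VTA and 14.6% toward SNpc. With the glial covariate, the numbers higher in VTA and in SNpc were 18 and 1 for the enzymes outside the rule, 11 and 2 for the acetyltransferase complexes and 8 and 2 for the deacetylase complexes. They were 7 and 2 for the readers, 3 and 0 for the H3K4 complexes, 2 and 1 for the polycomb complex and 2 and 2 for the cofactor genes. For these covariate counts the matching shares are 14.3% toward VTA and 9.49% toward SNpc.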

How the data were processed

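The deposited table holds raw counts for 23079 genes in 12 columns, as whole numbers. Per the labels' protocols, libraries were made with the NuGEN Ovation V2 kit, which does not mark strand. Reads were aligned with TopHat2 2.0.8 to mm10 according to the submitters' processing notes. How reads were counted, with which annotation and which strand setting, is not given in the sources used here, so reads in exons shared by overlapping genes (22 members, 13 of them called) are uncertain.

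Columns with identical counts were used once, which left 10 libraries. Chi-square per gene was 43.06 to 148.4 for the remaining pairs of columns within a region. Counts were tested in R 4.3.3 with edgeR 4.0.16: filterByExpr by region, TMM scaling, the robust quasi-likelihood test without covariates, and Benjamini-Hochberg adjustment over 15685 genes with a threshold of 0.05. Log2 fold changes are SNpc minus VTA. Transcript length was matched for 20945 genes from GENCODE and symbols for 23008 from RefSeq. Log2 ratios of pairs used a prior count of 2. Alternatives were DESeq2 1.42.0, other scalings, no filter, 12 columns, a replicate block, and removal of the length and GC trend by spline offsets. Further alternatives were the mean log2 CPM of glial and vascular markers as a covariate, a minimum change of 1.5-fold, and leaving out each library. The scripts were tested on simulated data. Members, lists, pairs and tests were chosen with earlier results of these data known. Named with values in every library were, in each role, the 3 members with the smallest p and the 1 with the highest CPM per kilobase, called members with at least a 2-fold change, and both genes of pairs whose ratio differed, 35 in all. Hdac10, Setdb1 and Setdb2 among them are given by their range, and the values of Kdm1a and Setd4 are added, chosen after they were seen. In each other list the 2 genes with the smallest p are named. Promoters were searched in RefSeq windows.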

Additional observations from a re-analysis of the deposited data

Results flagged for a closer look

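In 6 of the 122 groups of 5 libraries that the members form, 1 library lay far from the other 4 on the log2 scale, by a gap that chance gives in about 1 in 20 groups. The number found is about what that rate gives among 122 groups. Hdac10 measured 1.97 CPM in VTA library 1, where the next value was 1.15. Sirt7 measured 7.29 CPM in VTA library 2, beside 4.11 for the next. Setd6 was low in VTA library 1 at 6.03 CPM, with the next at 11.3. These 3 genes were not called. Among called members, Prmt3 was highest of its region in VTA library 1 at 27.5 CPM beside 21.8, on the side of the SNpc values. Hdac7 was lowest of its region in VTA library 6 at 8.04 CPM beside 9.61, likewise toward SNpc. Setd1a was lowest of its region in SNpc library 2 at 45.7 CPM beside 56.2, away from the VTA values.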

How the results depend on the processing

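No member called in the report turned sign in any setting tried, and Setd7, not called there, was called higher in SNpc with the trend removed. Removing the length and GC trend left 5 members higher in SNpc with the library scale kept (2296 of all genes higher in SNpc). Adding glial markers as a covariate left 4 (1488 of all genes). Against a minimum change of 1.5-fold (edgeR's glmTreat), 0 members were higher in SNpc, also 0 at an unadjusted p under 0.05, and 10 were higher in VTA, with 94 and 1146 of all genes and 25 genes of the other chromatin lists in place of 75. DESeq2's test gave 11 members higher in SNpc and 22 in VTA, beside 20.8% and 21.6% of all genes. With 1 library left out, members higher in SNpc numbered 6 to 12 and in VTA 20 to 22, all genes 2284 to 3317 and 2790 to 3193, genes of the other lists 67 to 81, and pairs 4 to 7. Libraries that share a number did not deviate together (r of -0.0723 to 0.0443 over 4 numbers, of which 1 matched itself best). With the number as a replicate block, 3 members were higher in SNpc and 20 in VTA, beside 1814 (11.6%) and 2571 (16.4%) of all genes. In that setting 0 pairs passed, since 4 pairs of libraries cannot give a p below 0.125. The signs of 13 uncalled members turned in at least 1 setting, among them 3 of the 35 named by rule: Ehmt2 with the block (0.049), with the trend removed (0.20 for both scalings) and without SNpc library 3 (0.032), SNpc library 4 (0.057) or VTA library 6 (0.012), ranging from -0.15 to 0.057 over single libraries left out; Hdac5 with the trend removed (0.17 for both scalings); and Setd7 with DESeq2's size factors or test (0.0022 each), the block (0.00028), the trend removed (0.37 with the scale kept, 0.36 refitted) and without SNpc library 2 (0.0038), SNpc library 4 (0.084) or VTA library 5 (0.011), ranging from -0.082 to 0.084. Where no cause is stated, the cause was not tested. Of the scarce members, Hdac10, Ezh2, Setd4 and Kdm4d had the largest standard errors of all members, 0.47 to 0.52.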
